A study of Mus musculus with 8 samples.

Results

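The genes of the classical complement cascade, its receptors and its regulators were followed in hippocampus of mice whose excitatory forebrain neurons lack Ctcf: C1qa, C1qb, C1qc, C4b, C3, C3ar1, Itgam, Itgb2, Serping1 and Cd55. The 10 genes were chosen by name, with earlier results of these data known. All array probes annotated to these symbols were taken, which gave 14 of 39429 probes. All 14 passed the detection filter, against 23634 of all probes, and the 10 genes stand among 18333 genes tested.

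Complement is a set of secreted proteins that tag surfaces for removal. C1q, a protein built from A, B and C chains, recognises a target and starts the classical pathway; C4 and then C3 are cleaved, and their fragments bind the target; phagocytes take it up through complement receptor 3, a pair of the integrin chains CD11b and CD18. In the mouse brain C1q is made mainly by microglia, and the same cascade marks synapses for removal by microglia during development and in models of disease.

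The groups were conditional knockout mice (CKO), which carry Ctcf loxP alleles on both chromosomes together with Camk2a-Cre, and control mice (WT), which carry the same floxed alleles and no Cre. Ctcf encodes a DNA-binding protein of chromatin insulators and loop anchors; Camk2a-Cre is a driver used to remove genes from excitatory neurons of the forebrain and not from microglia or astrocytes. Cre was present in CKO mice alone, so effects of Cre and of the loss of Ctcf cannot be told apart. All mice were C57BL/6 adults aged 3 to 6 months that had gone through open field, sensorimotor, water maze and social approach tests. Each sample was RNA of whole hippocampus pooled from 3 mice, with 3 pools of each genotype. Same-numbered pools had the same makeup in both genotypes: 2 females and 1 male of 19 to 23 weeks in pool 1, 3 females of 18 to 19 weeks in pool 2, and 3 males of 15 to 17 weeks in pool 3. For pool 1 the RNA of either genotype went on 2 arrays, which were averaged, so n is 3 pools a genotype; 1 slide held the first arrays of pool 1 with pool 2, the other the second arrays of pool 1 with pool 3.

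A level below is log2 of an array's signal minus log2 of that array's 75th percentile signal, so a difference of 1 between genotypes is a doubling. Between 59.2% and 66.0% of spots on an array were well above background and 0 were saturated. Ctcf itself had levels of 0.18, 0.16 and 0.05 in CKO pools 1 to 3, against 0.83, 1.12 and 1.04 in WT pools 1 to 3. The highest CKO pool was below the lowest WT pool, with a difference of -0.87 (SE 0.13). The adjusted p by limma was 0.143, and it was 0.0292 with a term for pool number (a block). Without the second array of WT pool 1, described below, the difference was -0.95 (SE 0.09). With each probe fitted on its own the adjusted p by limma was then 0.00518, or 0.0223 with the block. The sources used here do not say whether this probe lies in the deleted part. The hippocampal neuron markers Camk2a, Neurod6 and Slc17a7 were among the 11 of 12 listed that passed the detection filter, and all 16 listed microglia markers passed it.

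The second array of WT pool 1 stands apart, and most results below are given with and without it. It correlated with the first array of the same RNA at r = 0.953 across genes, against 0.989 for the 2 arrays of CKO pool 1. Over all probes its departure went with the GC content of the probe: for probes of up to 35% GC the median shift from the first array was -0.22 in CKO pool 1 and -0.54 in WT pool 1, and for probes above 50 and up to 55% GC it was 0.30 in CKO pool 1 and 0.69 in WT pool 1. Of the 14 complement probes 9 had a GC content of 45% to 55%, and these read 0.70 to 1.89 higher on the second WT array than on the first. The probes of C4b, C1qc and Cd55, at 43.3%, 38.3% and 35% GC, shifted by -0.32, -0.10 and 0.33. Not every probe went with its GC content: the brightest Itgam probe, at 36.7% GC, shifted by 1.01, where the median of probes above 35 and up to 40% GC was -0.23. The dimmer C3 probe and the C3ar1 probe, both at 45% GC, shifted by 1.39 and 0.89. The median of probes above 40 and up to 45% GC was 0.19. The complement probes of 45% to 55% GC all shifted by more than the median of their GC bin. On the second array of CKO pool 1, every complement probe but those of C1qc and C4b also read above the first array. Leaving out only the WT array keeps these higher CKO readings, which favours a higher CKO value. Values from first arrays only, the balanced choice, are therefore given beside it for several genes.

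**Figure D1:**
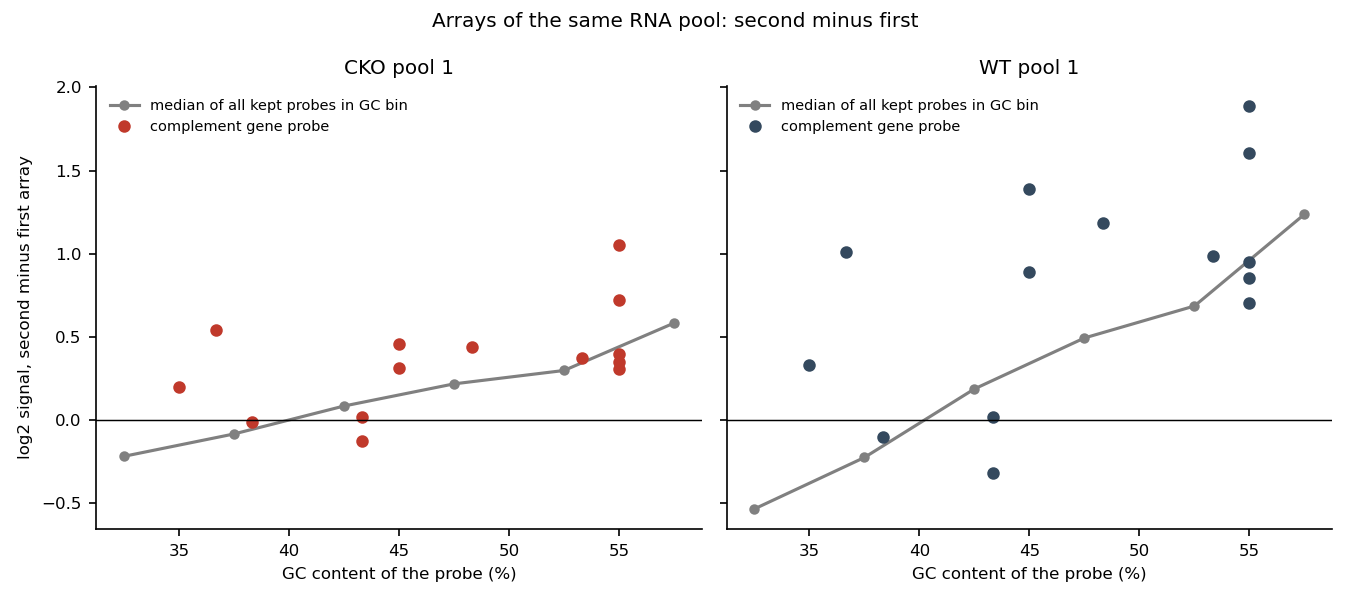
Second minus first array of pool 1 (log2, vertical axis) against the GC content of the probe (percent, horizontal axis), in CKO on the left and WT on the right. Grey points joined by a line are medians of all kept probes in each GC bin, and coloured points are the 14 complement probes; the WT line climbs from -0.54 to 1.24, the CKO line from -0.22 to 0.58.

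The 3 chains of C1q had like mean differences with all arrays, and less alike ones without the second array of WT pool 1. C1qa, the A chain, had levels of 3.64, 3.91 and 3.23 in CKO pools 1 to 3, against 3.62, 2.76 and 2.71 in WT pools 1 to 3. CKO pools 2 and 3 were above their WT counterparts, but WT pool 1 was as high as CKO pool 1, so the groups overlapped. The means were 3.59 ± 0.34 in CKO and 3.03 ± 0.51 in WT (SD, n = 3 each), a difference of 0.56 (SE 0.27), or 1.48-fold, with an adjusted p of 0.970 by limma over all genes. WT pool 1 read 3.14 on its first array and 4.09 on its second, where CKO pool 1 read 3.44 and 3.84. Without that second WT array the WT mean was 2.87 ± 0.24, and every CKO pool exceeded every WT pool. The difference was then 0.72 (SE 0.18, adjusted p = 0.119 by limma). From first arrays only it was 0.65 (SE 0.18, adjusted p = 0.166 by limma).

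C1qb, the B chain, followed the same pools, with 3.24, 3.50 and 2.90 in CKO and 3.18, 2.52 and 2.36 in WT. WT pool 1 again sat among the CKO pools. The difference was 0.53 (SE 0.24, adjusted p = 0.923 by limma), and 0.67 (SE 0.16, adjusted p = 0.108) without the second array of WT pool 1. For C1qb it was 0.61 (SE 0.16, adjusted p = 0.158 by limma) from first arrays only. C1qc, the C chain, was read by a probe spotted 10 times on each array, at 2.64, 3.25 and 2.33 in CKO and 2.36, 2.23 and 2.09 in WT. CKO pool 2, the pool of females, was highest, and CKO pool 3 lay just below WT pool 1. The difference was 0.52 (SE 0.22, unadjusted p = 0.0455, adjusted p = 0.903 by limma), and 0.50 without that array, so the C chain depended little on it. In bulk RNA such a difference does not tell more cells of a type apart from more RNA per cell.

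The C1q genes lie side by side on mouse chromosome 4, within 18719 bases, in the order C1qb, C1qc and C1qa. Promoters of C1qb and C1qc, from 250 bases before to 50 after the gene start, were at hand from RefSeq on GRCm38.p6, both on the minus strand, at chr4:136886151-136886450 and chr4:136892865-136893164. They are shown because the chains differed by like amounts with all arrays, and because PU.1, a transcription factor of myeloid cells, is known to drive microglial genes. Capitals mark its core GAGGAA, or TTCCTC on the other strand.
C1qb promoter: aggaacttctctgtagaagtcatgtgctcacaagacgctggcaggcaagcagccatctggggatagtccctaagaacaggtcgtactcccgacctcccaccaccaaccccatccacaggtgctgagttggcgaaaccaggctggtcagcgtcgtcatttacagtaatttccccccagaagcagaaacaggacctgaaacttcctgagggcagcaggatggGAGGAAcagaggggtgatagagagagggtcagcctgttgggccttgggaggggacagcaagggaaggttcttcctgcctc
C1qc promoter: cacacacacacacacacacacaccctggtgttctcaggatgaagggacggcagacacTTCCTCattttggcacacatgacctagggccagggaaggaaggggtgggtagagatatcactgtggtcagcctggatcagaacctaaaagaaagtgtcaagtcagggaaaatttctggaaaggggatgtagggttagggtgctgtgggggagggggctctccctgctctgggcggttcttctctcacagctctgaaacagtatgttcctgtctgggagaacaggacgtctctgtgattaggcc
Each holds the core once, starting at position -30 relative to the gene start in C1qb and -193 in C1qc, and the core is found on either strand in 28.3% of 32851 promoters of the same length. Of 10 members, 6 had a promoter in the table. The Itgam promoter holds the core 3 times, and those of C3, C3ar1 and Cd55 hold 0. The pattern TTCNNNGAA of the STAT factors, which act downstream of interferons and other cytokines, is present in 8.30% of promoters and was found in none of these 6 windows. A match is a run of letters and not a bound site.

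C4b encodes complement C4, which C1q-bound proteases cleave and whose fragment attaches to the target. Its level was 1.39, 1.88 and 1.08 in CKO pools 1 to 3, against 0.47, 0.95 and 0.83 in WT pools 1 to 3. The lowest CKO pool lay above the highest WT pool. The means were 1.45 ± 0.40 in CKO and 0.75 ± 0.25 in WT (SD, n = 3 each), a difference of 0.70 (SE 0.22), or 1.62-fold. The unadjusted p was 0.0119 and the adjusted p 0.632 by limma, or 0.127 with the pool number as a block. Both arrays of pool 1 gave a like difference, 0.82 on the first and 1.01 on the second, and without the second array of WT pool 1 the difference was 0.64 (adjusted p = 0.165). C4a, a close neighbour of C4b on chromosome 17, had no probe named for it, and whether the C4b probe also reads C4a RNA was not tested.

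C3 is the protein whose cleaved form is the main tag that phagocytes recognise. Its brighter probe read -1.31, -1.34 and -1.64 in CKO pools, against -1.07, -2.10 and -1.70 in WT pools, a difference of 0.19 (SE 0.26, adjusted p = 0.999 by limma). WT pool 1 was the highest of all 6, from -1.88 on its first array and -0.27 on its second, so the groups overlapped. The other C3 probe, spotted 10 times, read -1.99, -1.40 and -2.12 in CKO pools, against -1.91, -2.40 and -2.29 in WT pools, a difference of 0.36 (SE 0.24). Without the second array of WT pool 1 the differences were 0.46 (SE 0.16) and 0.60 (SE 0.20). Both probes then had every CKO pool above every WT pool. At the closest, in pool 3, the brighter probe did so by 0.05 and the other by 0.17. From first arrays only the differences were smaller, 0.34 (SE 0.15) for the brighter probe and 0.52 (SE 0.22) for the other.

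C3ar1 encodes the receptor of C3a, the small fragment released when C3 is cleaved. It read -3.49, -3.48 and -3.97 in CKO pools 1 to 3, against -3.84, -4.44 and -4.71 in WT pools 1 to 3. CKO was the higher genotype in every pool number, by 0.35, 0.96 and 0.74, although CKO pool 3 fell below WT pool 1. The difference was 0.68 (SE 0.28), or 1.61-fold, with an unadjusted p of 0.0402 and an adjusted p of 0.885 by limma. For this dim probe it was 0.37 (SE 0.23) with normexp background correction. Without the second array of WT pool 1 it was 0.83 (SE 0.20, adjusted p = 0.108), and the groups did not overlap. From first arrays only it was 0.78 (SE 0.19, adjusted p = 0.127 by limma).

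Complement receptor 3 is made of CD11b, from Itgam, and CD18, from Itgb2. Itgam had 3 probes, printed here because 1 of them begins with a simple repeat; capitals mark a run of CA in the brightest, of which the first 30 bases are given.
Itgam probe 1 (A_55_P1977934): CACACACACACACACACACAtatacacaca
Itgam probe 2 (A_55_P1977929): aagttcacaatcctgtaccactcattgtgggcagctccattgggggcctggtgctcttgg
Itgam probe 3 (A_55_P1977926): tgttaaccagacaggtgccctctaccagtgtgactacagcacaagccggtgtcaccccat
The CA run at the start of probe 1 is 20 bases long. Of all kept probes, 87 hold a CA or TG run of at least 18 bases, and their median signal was 2.67 on the log2 scale, against -0.69 over all kept probes; probe 1 was brighter than 97.5% of all kept probes. Probe 1 read 4.93, 4.65 and 4.59 in CKO pools, against 5.31, 4.23 and 4.69 in WT pools, a difference of -0.019 (SE 0.25, adjusted p = 0.999 by limma). Probe 2 differed by 0.09 (SE 0.25) and probe 3 by 0.14 (SE 0.32), so with all arrays no Itgam probe differed by more than its standard error. Without the second array of WT pool 1 the 3 probes were all higher in CKO, probe 1 by 0.15 (SE 0.16), probe 2 by 0.21 (SE 0.19) and probe 3 by 0.46 (SE 0.20, unadjusted p = 0.0446, adjusted p = 0.295 by limma). From first arrays only, probe 1 differed by 0.06 (SE 0.14) and probe 2 by 0.16 (SE 0.19). Probe 3 then differed by 0.28 (SE 0.19, unadjusted p = 0.166 by limma). By pool number probe 2 differed by -0.36, 0.47 and 0.15, and probe 3 by -0.30, 0.64 and 0.09.

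Itgb2 read -1.24, -0.98 and -1.67 in CKO pools 1 to 3, against -1.09, -1.95 and -2.02 in WT pools 1 to 3. WT pool 1 was among the CKO pools, at -1.68 on its first array and -0.50 on its second. The difference was 0.39 (SE 0.29, adjusted p = 0.999 by limma), and 0.59 (SE 0.19, adjusted p = 0.194) without that second array. From first arrays only the difference was 0.51 (SE 0.19, adjusted p = 0.275 by limma). Leaving out 1 pool moved it to 0.69 without WT pool 1, 0.23 without CKO pool 2, 0.26 without WT pool 2 and 0.22 without WT pool 3.

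Serping1 encodes the C1 inhibitor, which shuts off the proteases that act with C1q. Its brighter probe read 1.13, 1.12 and 0.74 in CKO pools, against 1.35, 0.47 and 0.65 in WT pools, a difference of 0.17 (SE 0.23, adjusted p = 0.999 by limma). Its other probe, at 43.3% GC, averaged -0.96 ± 0.32 in CKO pools and -1.36 ± 0.20 in WT pools (SD, n = 3 each), a difference of 0.40 (SE 0.20). Both were higher in CKO in the mean, but in pool 1 the brighter probe differed by -0.22 and the other by 0.28. The second array of WT pool 1 read 0.99 above the first for the brighter probe and 0.02 above it for the other.

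Cd55 encodes decay-accelerating factor, a membrane protein that breaks up the enzymes that cleave C3. It read -0.92, -1.01 and -1.21 in CKO pools 1 to 3, against -1.55, -1.70 and -1.51 in WT pools 1 to 3. Every CKO pool lay above every WT pool, with 0.29 as the smallest difference of same-numbered pools. The means were -1.05 ± 0.15 in CKO and -1.59 ± 0.10 in WT (SD, n = 3 each), a difference of 0.54 (SE 0.16), or 1.45-fold. The unadjusted p was 0.00879 and the adjusted p 0.576 by limma, or 0.332 with the pool number as a block. Cd55b, a mouse paralog next to it on chromosome 1, gave -1.67, -1.77 and -2.02 in CKO pools, against -2.72, -2.42 and -2.46 in WT pools, a difference of 0.71 (SE 0.18, adjusted p = 0.424 by limma). Whether either probe also reads the other gene was not tested. Without the second array of WT pool 1 the adjusted p was 0.0937 for Cd55 and 0.0869 for Cd55b.

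**Figure D2:**
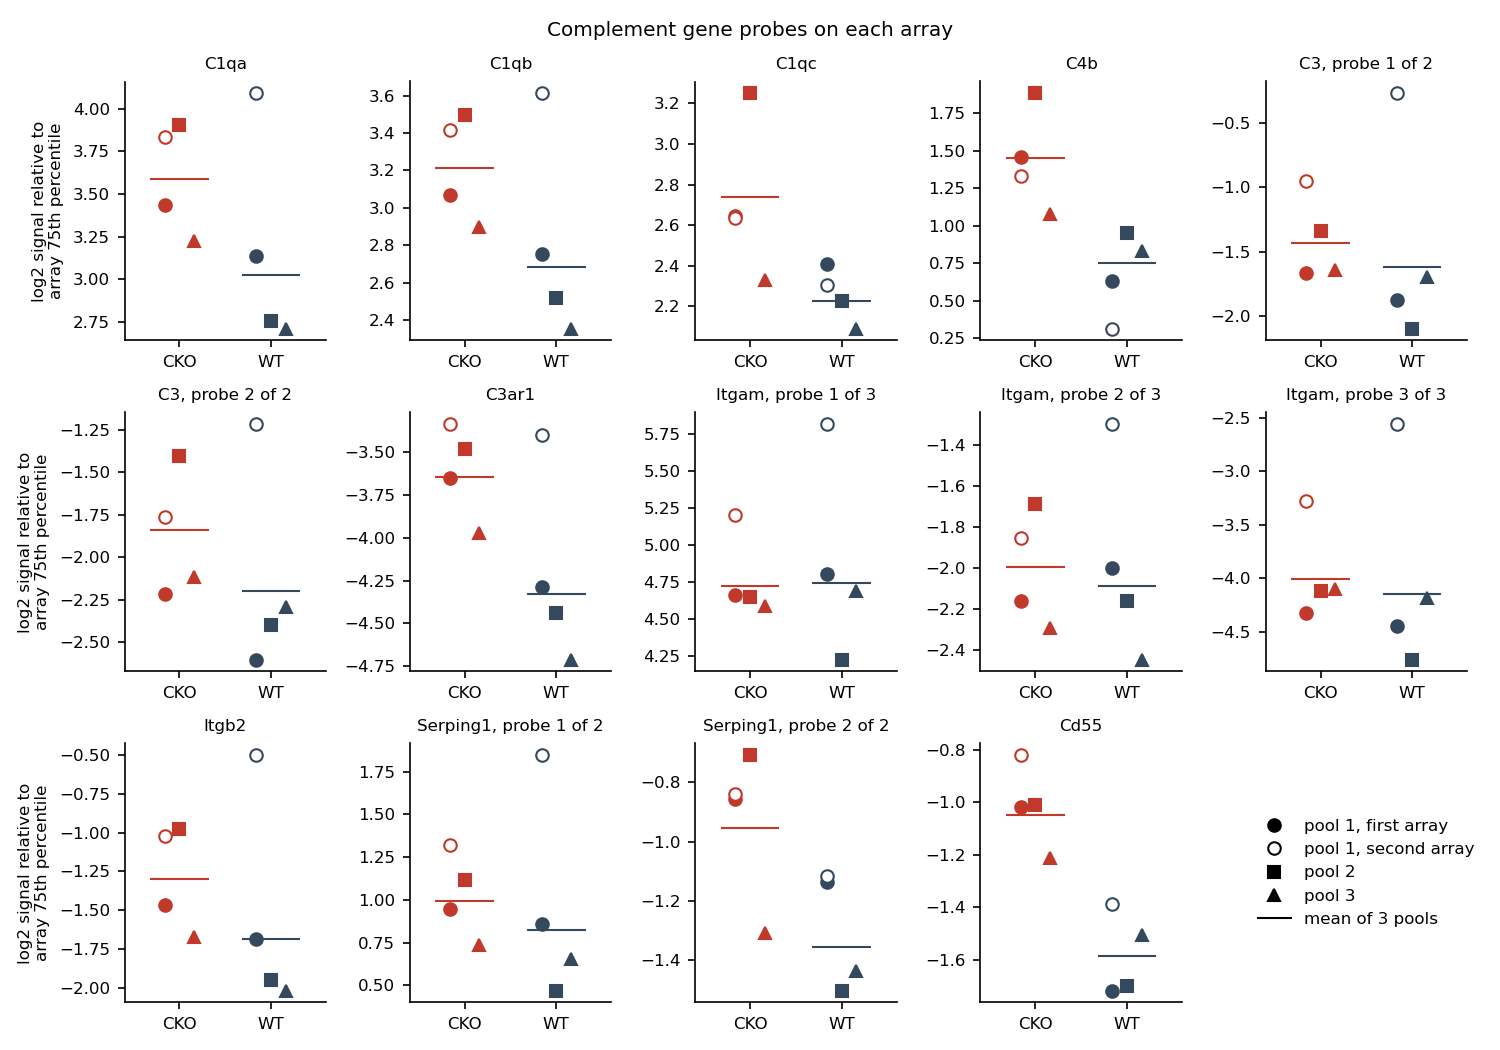
Level of each complement probe (log2 signal relative to the array 75th percentile, vertical axis) on every array, CKO left and WT right; filled circles are the first array of pool 1, open circles its second, squares pool 2, triangles pool 3, and lines the mean of 3 pools. C4b and Cd55 have every CKO pool above every WT pool, and the open WT circle sits above the other WT points for most other probes.

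Counted together, 9 of the 10 genes had a positive difference, beside 49.4% of all genes higher. The members were chosen with earlier results of these data known, so this count and those below describe them and are no test. Nor are the members separate observations: C1qa and C1qb ran together over the 6 pools (r = 0.995). None of the 10 passed an adjusted p of 0.05 by limma; the same test called 0.0273% of all genes. At an unadjusted p under 0.05 it gave 4 of the 10, C1qc, C3ar1, C4b and Cd55, all higher in CKO pools, beside 2.92% of all genes higher at that level. In 2 of the 10, C4b and Cd55, the lowest CKO pool lay above the highest WT pool, beside 5.71% of all genes. The median difference of the 10 genes was 0.52, against -0.0032 over all genes; without CKO pool 2 it was 0.32, with C4b at 0.48, Cd55 at 0.52 and C1qc at 0.26. With the pool number as a block 0 of 10 passed, where 0.562% of all genes did, and 6 had an unadjusted p under 0.05, beside 4.58% of all genes higher.

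Without the second array of WT pool 1, 10 of 10 genes were higher, beside 53.6% of all genes, with a median difference of 0.59. In 7 the groups did not overlap, beside 11.6% of all genes, and 9 had an unadjusted p under 0.05, beside 8.47%. Still 0 passed the adjusted threshold by limma, where 0.742% of all genes did, and the lowest adjusted p was 0.0937. When pool 1 was read from its first arrays only, 10 of 10 were again higher, beside 52.3% of all genes, and 7 did not overlap, beside 10.3%. At an unadjusted p under 0.05 there were 7, beside 6.98%, and 0 passed the adjusted threshold by limma, where 0.735% of all genes did. With values centred within probe GC bins on each array, the median was 0.51 and 3 genes did not overlap, beside 5.96%. At an unadjusted p under 0.05 by limma there were 6, beside 3.49% of all genes higher. The adjusted threshold was passed by 0 of 10, and by 0.06% of all genes.

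The difference was unequal across pool numbers. Its median over the 10 genes was 0.039 in pool 1, 0.94 in pool 2 and 0.27 in pool 3. All 10 genes were higher in the CKO pool of females, pool 2, and 9 in the CKO pool of males, pool 3. In pool 1, of mixed sex, 6 were higher with both arrays averaged. On the first arrays of pool 1 alone the median was 0.27 and 9 of 10 were higher. CKO exceeded WT in every pool number for 6 genes, beside 14.1% of all genes. With 1 pool of each makeup, sex, age and pool cannot be told apart. Pool 2 lay wholly on slide 1 and pool 3 wholly on slide 2, so slide cannot be told apart from them either. Slide 2 also held the second array of WT pool 1. Within slide 1 the median was 0.64 and within slide 2 it was 0.15; C4b differed by 0.88 (SE 0.18) and 0.63 (SE 0.28) on them, Cd55 by 0.69 (SE 0.13) and 0.43 (SE 0.32), and C1qa by 0.72 (SE 0.20) and 0.13 (SE 0.52).

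**Figure D3:**
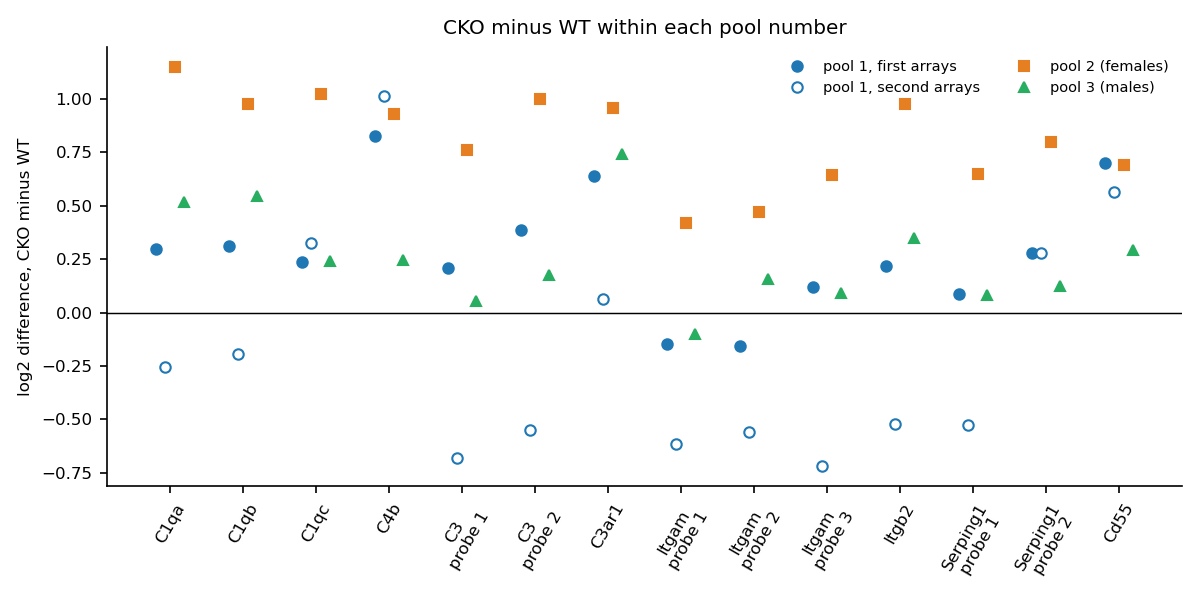
CKO minus WT (log2, vertical axis) within each pool number for the 14 complement probes; filled and open circles are the first and second arrays of pool 1, squares pool 2 (females), triangles pool 3 (males). All squares lie above 0, and the open circle lies lowest for each probe except those of C1qc, C4b and Cd55 and the dimmer Serping1 probe.

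The rest of the pathway was read on the same arrays. Of 41 other complement genes listed, 23 were measured; 12 were higher and 11 lower in CKO pools, with a median difference of 0.0025, and 0 passed by limma. Cd55b was the 1 gene of these at an unadjusted p under 0.05. The others of smallest p were C1qbp, a mitochondrial protein first found as a binder of C1q, at -0.26 (SE 0.12); Cd59a, which blocks the membrane attack complex, at 0.19; and C2, the protease that acts with C4, at -0.20. The proteases C1ra and C1s1, which C1q activates, differed by 0.06 and -0.04, and Cfb, a protease of the alternative pathway, by -0.13.

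**Figure D4:**
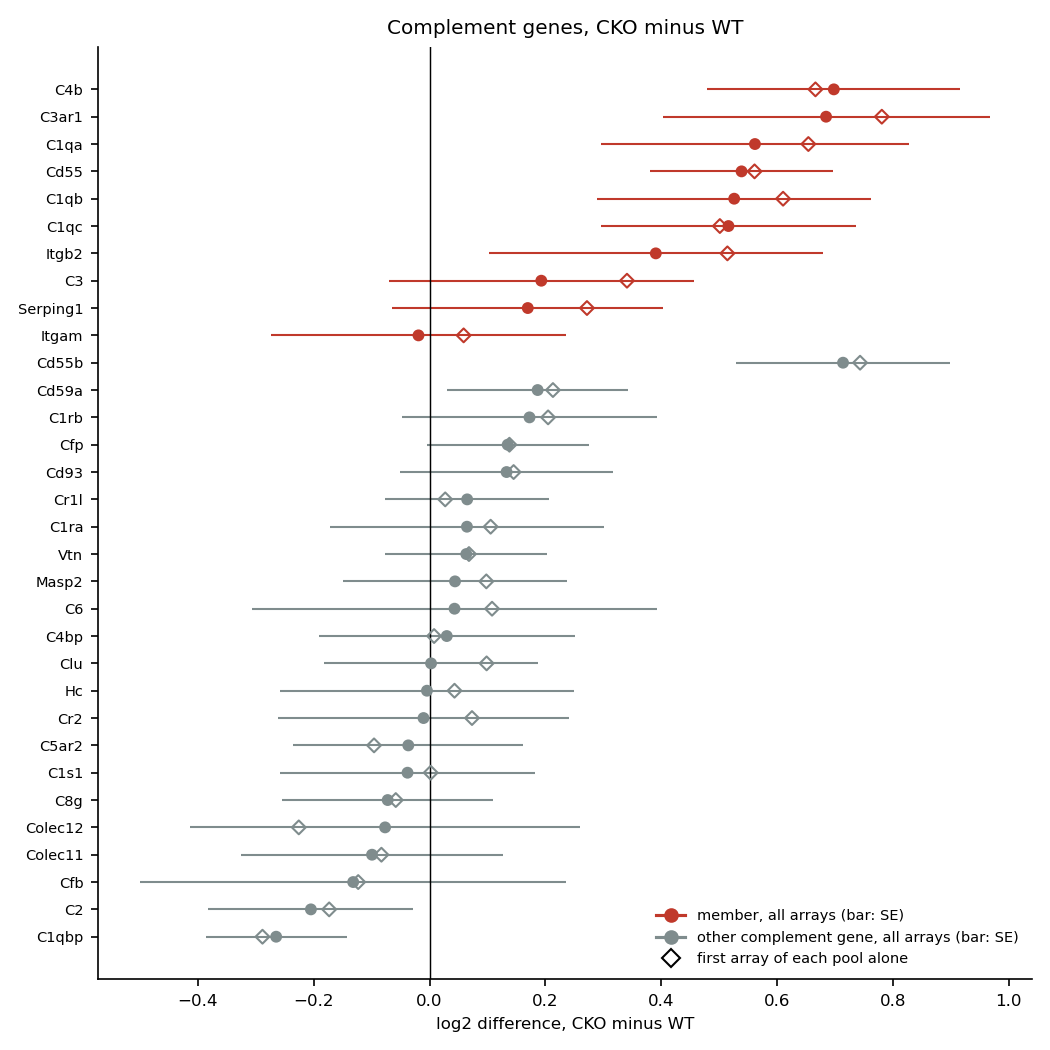
CKO minus WT (log2, horizontal axis) for the 10 members (red) and the other measured complement genes that are reported here (grey); circles use all arrays with bars of 1 SE, open diamonds only the first arrays. Members run from -0.019 to 0.70, and the other complement genes from -0.26 to 0.71, the last being Cd55b.

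A list meant to hold genes that restrain or recruit complement at synapses was read on the same arrays. Whether each listed gene, Cntnap4 among them, has such a role was not checked. Of 12 listed, which include the sushi-domain proteins Csmd1 and Susd4 and the neuronal pentraxins, 9 were measured, 3 higher and 6 lower, with a median of -0.07 and 0 passing. Without the second array of WT pool 1, 7 were higher and the median was 0.04. With first arrays only, 4 were higher and the median was -0.01. Nptx2, an activity-regulated pentraxin of excitatory synapses, read -0.59, -2.92 and -1.63 in CKO pools 1 to 3, against -3.20, -2.89 and -3.45 in WT pools 1 to 3. CKO pools 1 and 3 were high and CKO pool 2 lay at the level of WT, whereas C1qa differed most in pool 2. The difference was 1.47 (SE 0.51, adjusted p = 0.757 by limma). Csmd1, a complement inhibitor on neurons, differed by -0.16, Cntnap4 by -0.18 and Nptx1 by 0.19.

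Of 16 genes of phagocytic synapse removal beside complement, 8 were higher and 8 lower, with a median of 0.02 and 0 passing. Pros1, the protein S ligand of the phagocytic receptor Mertk, read -1.07, -0.69 and -0.97 in CKO pools, against -1.59, -1.29 and -1.41 in WT pools. The lowest CKO pool was above the highest WT pool, with a difference of 0.52 (SE 0.17, adjusted p = 0.707 by limma). Tyrobp, the signalling adaptor of Trem2, differed by 0.52 (SE 0.23), Lrp1, an endocytic receptor, by 0.22, and P2ry12, the ADP receptor of resting microglia, by -0.19.

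Markers of the cells that make these proteins are set beside the result. The 16 microglia markers were 10 higher and 6 lower, with a median difference of 0.10 and 0 passing; relative to the mean of WT pools their mean level was 0.10, 0.39 and -0.13 in CKO pools 1 to 3, against 0.13, -0.05 and -0.08 in WT pools 1 to 3. The 10 complement genes on the same scale stood at 0.50, 0.65 and 0.13 in CKO pools, against 0.37, -0.21 and -0.16 in WT pools. CKO pool 2 was highest in both lists. On the first and second arrays of WT pool 1 the complement genes stood at 0.0004 and 0.74, and the microglia markers at 0.17 and 0.09. Among single markers Cx3cr1 differed by -0.03, P2ry12 by -0.19, Tmem119 by 0.14 and Aif1 by 0.27. The 11 measured border macrophage and leukocyte markers were at 0.46, 0.01 and -0.35 in CKO pools, against 0.43, -0.05 and -0.38 in WT pools.

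Astrocyte markers such as Aldh1l1 (0.06) and Aqp4 (0.03) had a median difference of -0.02 over 12 genes. Of 11 measured reactive astrocyte markers 10 were higher, with a median of 0.59 and means of 0.81, 0.93 and 0.46 in CKO pools, against 0.19, 0.03 and -0.22 in WT pools. By limma 0 of these passed, and with the pool number as a block Timp1 (difference 1.85, SE 0.39), Socs3 (1.11, SE 0.26), Gfap (0.68, SE 0.18) and Serpina3n (adjusted p = 0.00619) did. In the block without the second array of WT pool 1 only Serpina3n of these 11 passed (adjusted p = 0.0422 by limma), and likewise in the block with first arrays only (adjusted p = 0.0139). Choroid plexus markers, from tissue that borders the hippocampus, were 14 of 14 higher. Their means were 0.91, 0.96 and 0.48 in CKO pools, against -1.15, 0.44 and 0.72 in WT pools. WT pool 1 was the low pool, on both its arrays (-1.03 and -1.27), and CKO pool 3 lay below WT pool 3. Ttr, the most typical of these markers, differed by 0.49 (SE 0.32). The 12 meninges markers had a median of -0.14, with Dcn at -0.20 and Col1a1 at 0.16. The part of any of these cells in the complement values was not tested.

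**Figure D5:**
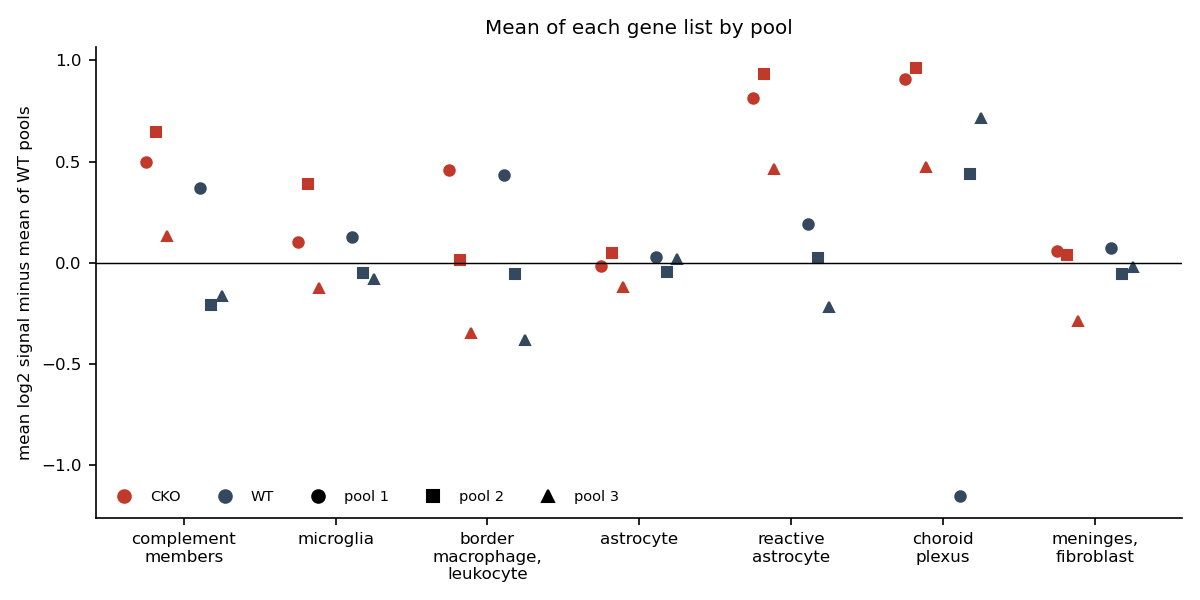
Mean log2 level of each gene list in every pool, minus the mean of the 3 WT pools (vertical axis); CKO in red to the left of WT in dark blue, circles pool 1, squares pool 2, triangles pool 3. The complement genes, the reactive astrocyte markers and the choroid plexus markers sit above 0 in CKO pools 1 to 3. The microglia, border macrophage and meninges markers do so in CKO pools 1 and 2. Some WT pools sit above 0 too, among them pool 1 for the complement genes and pools 2 and 3 for choroid plexus.

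The genes whose levels followed the main members most closely over the 6 pools were found by Pearson correlation, as a description of pools that share slides. They are the highest r picked from 18333 genes over only 6 pools, so high values come with the picking. WT pool 1 was read with its second array included, and how far that array shapes these r values was not tested. C1qa ran with Gm5637 (r = 0.999), with Fcgr4, an activating Fc receptor of myeloid cells (r = 0.998), and with C1qb (r = 0.995). C4b ran with Lilrb4a, an inhibitory receptor of myeloid cells (r = 0.992), Smim14 (r = 0.986) and Mmp2, a gelatinase (r = 0.985). C3 ran with Cd38, an NAD-consuming surface enzyme (r = 0.999), and with the unnamed probes A_55_P1996818 (r = 0.999) and A_55_P2064901 (r = 0.993). Fcgr4 differed by 0.55 between genotypes and Lilrb4a by 1.25, while Cd38 differed by 0.10.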

How the data were processed

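Total RNA of whole hippocampus was amplified, labelled with Cy5 and hybridised to 8 Agilent 1-colour arrays, per the labels' protocols. The deposited spot intensity values were made with Feature Extraction (11.5.1.1 per the file headers, given as 11.5 in the submitters' processing notes): the local background was subtracted and trends within an array removed, with no normalisation between arrays. The authors' series value table, also deposited as intensity, has no stated scaling and served as an alternative. Flags deposited for each spot mark outliers, saturation and signal well above background.

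From the deposited intensity, log2 values were taken relative to each array's 75th percentile. Outlier spots were dropped, and spots of a probe, then arrays of a pool, were averaged. A probe entered if all arrays of CKO or all arrays of WT had it well above background, and a gene was read by its brightest probe. Probes were named through RefSeq accessions (27508), symbols (3544), synonyms (404) or the file's name (7973). CKO minus WT was fitted with limma 3.58.1 (lmFit, then eBayes with a trend; R 4.3.3). Its two-sided p-values were adjusted by Benjamini-Hochberg across 18333 genes, with a threshold of 0.05. With 3 pools a genotype an exact test reaches 0.1 at the lowest, and the number of arrays limits the precision.

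On simulated data over 18302 genes the fit recovered 46 of 100 genes changed by 1 on the log2 scale and 85 of 100 changed by 2, with 8 false calls. The simulated pools were independent, unlike the measured ones described next. Changes as small as those of the members were not simulated, so recovery at that size is not known. Deviations from the genotype means correlated between pools of the same number (r = 0.55, 0.33 and 0.13 across genes, against at most 0.12 between different numbers; 0.088, 0.082 and 0.12 against 0.028 with first arrays only). The labels give such pools the same sexes and ages, so pool number is also fitted as a block, and that value is printed where it moves a count or a call.

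Named are all members with every probe, Ctcf, the 4 genes of smallest unadjusted p in each of the other complement, neuronal regulator and phagocytic lists, list genes that passed, set markers of each cell type, and the 3 genes most correlated with C1qa, C3 and C4b. Others (C1ra, C1s1, Cfb, Susd4, Camk2a, Neurod6, Slc17a7, Timp1, Socs3) were named after their values were seen. Some list genes are counted but not reported here by name. The members and lists were chosen with earlier results of these data known. Alternatives were other scalings and background corrections, filters, slides, blocks and left-out pools or arrays.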

Additional observations from a re-analysis of the deposited data

How the results depend on the processing

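Under 23 other settings, and with each probe fitted on its own, 0 of the 10 members and 0 other complement genes passed the adjusted threshold by limma, and the pool-number block changed no member's call. The lowest adjusted p of any member over these settings was 0.067 (C1qb, block without the second array of WT pool 1). The median member difference, 0.52, ranged from 0.15 within slide 2 to 0.64 within slide 1, and from 0.32 to 0.65 with 1 pool left out. Over all genes 5 were called. The count was 103 with the pool number as a replicate block, 139 without the second array of WT pool 1, 139 with first arrays only, 82 and 69 with the block under these array choices, 12 within slide 1, 0 within slide 2, 11 with GC bins centred, 8 with each probe fitted on its own, 3 from the authors' value table, and 0 to 18 with 1 pool left out. Of the members' values 213 kept their direction and 17 turned. Itgam, at -0.019, was 0.054 with quantile normalization, 0.034 in the value table, 0.14 within slide 1, 0.15 without the second array of WT pool 1 (with or without the block), 0.059 with first arrays only (with or without the block), 0.072 over all its probes, 0.090 without its CA-repeat probe, and -0.28 to 0.27 with 1 pool left out. Within slide 2, C3 was -0.31, Itgb2 -0.088 and Serping1 -0.22. With 1 pool left out, C3 ran from -0.046 to 0.47 and Serping1 from -0.0090 to 0.43. The cause was not tested. The GC-bin and CA-repeat settings, and the block with arrays left out, were chosen after seeing the data. All member probes passed the detection filter; 3 pools a genotype limit the precision.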

Other observations

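Astrocyte activation genes were read in the same pools as the complement genes and are given as values. Serpina3n, a secreted protease inhibitor that reactive astrocytes make, stood at -1.34, 0.092 and -1.25 in CKO pools 1 to 3, against -2.78, -1.54 and -2.68 in WT pools 1 to 3. Pool 2, of females, was the high pool in both genotypes, and CKO exceeded WT in each pool number. Timp1, an inhibitor of matrix metalloproteinases, averaged -1.45 ± 0.86 in CKO pools and -3.30 ± 0.27 in WT pools (SD, n = 3 each). Osmr, the oncostatin M receptor, averaged -1.03 ± 0.02 in CKO pools and -1.81 ± 0.11 in WT pools (SD, n = 3 each). Its adjusted p by limma was 0.192, and 0.0343 without the second array of WT pool 1, a setting in which Timp1 also passed (adjusted p = 0.0497); with the pool number as a block in that setting neither did (adjusted p = 0.0549 by limma for both).

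Markers of further cell types are given as values. Of 8 oligodendrocyte markers 7 were higher in CKO pools, with a median difference of 0.22 and 0 passing by limma; 2 had an unadjusted p under 0.05. Of 12 endothelial and mural markers 9 were higher, with a median of 0.066 and 0 passing or under an unadjusted p of 0.05. The 11 measured neuron markers had a median of -0.028. Among these Wfs1, a marker of CA1 pyramidal cells chosen here after its values were seen, read 1.68, 1.70 and 1.79 in CKO pools, against 2.46, 2.74 and 2.71 in WT pools, with an adjusted p of 0.118 by limma and 0.0163 with the pool number as a block.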
